A study of Mus musculus with 6 samples.

Results

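The genes described here encode proteins that coat, build or adjoin the lipid droplet of the fat cell, and they were taken by symbol from the gene count lists. All 10 were found among the 22609 symbols listed, and all 10 were among the 13117 genes with enough reads to be tested. They comprise the 5 perilipins (Plin1 to Plin5), the droplet fusion protein Cidec, seipin (Bscl2), and 3 structural proteins of caveolae (Cav1, Cav2 and Ptrf, now named Cavin1). The RNA came from primary cultures of inguinal white adipose tissue (iWAT), in which stromal vascular cells of subcutaneous fat were isolated and differentiated. There were 3 control samples and 3 samples overexpressing miR-182-5p, each group numbered as replicates 1 to 3. According to the labels, every culture came from male C57BL6 mice at 3 weeks of age and was transfected by electroporation, the control receiving a control vector, whereas the study's methods describe a miRNA mimic delivered with a lipid reagent and mice of another age. Nothing in the labels says that replicates came from separate animals or cultures, so p-values measure only the spread between these samples.

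An adipocyte stores triglyceride in a droplet bounded by a phospholipid monolayer. Perilipins cover this surface and control the access of lipases, Cidec enlarges droplets by passing lipid from smaller to larger ones, and seipin sits where the endoplasmic reticulum hands lipid to a growing droplet. Caveolae are flask-shaped pits of the plasma membrane, abundant in fat cells, that are shaped by caveolins and cavins. Certain variants of PLIN1, CIDEC, BSCL2, CAV1 or CAVIN1 (PTRF) cause inherited lipodystrophy in humans.

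The overexpressed miRNA and its matches in the members' transcripts are shown first, because the cultures differ in that miRNA. The sequence shown is the RefSeq entry. The study's methods print another sequence, with another seed, under the name miR-182-5p, and matches to that seed were not searched. Mature mmu-miR-182-5p, 25 bases long in RefSeq (GRCm38.p6, chr6:30165962-30165986, minus strand), is printed with its seed, bases 2 to 8, in capitals. A 3′-UTR (untranslated region) was searched for TTGCCAA, which pairs with bases 2 to 8, and for TGCCAAA, which pairs with bases 2 to 7 and ends in A. The 30-base windows come from the GENCODE M21 transcript of each gene with the longest 3′-UTR (GRCm38), on the strand of the transcript, with the match in capitals.
mmu-miR-182-5p: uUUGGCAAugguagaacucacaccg
Plin1 3′-UTR, chr7:79721117-79721146: taacaaaacttgTTGCCAAgtgacacctga
Ptrf 3′-UTR, chr11:100957249-100957278: aaactttagagcTTGCCAAgaccctcctgt
Plin3 3′-UTR, chr17:56278718-56278747: acaagctgagccTGCCAAAtatgcccacag

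Plin1 and Ptrf each held TTGCCAA once, Plin3 held TGCCAAA once, and the 3′-UTRs of the other 7 members held neither. Of 12530 tested genes with a 3′-UTR in the annotation, 12.51% held TTGCCAA and 20.35% held either match. Their median 3′-UTR length was 1202 bases. Among the members without a match it was 98 bases in Bscl2, 428 in Plin5, 468 in Plin2 and 928 in Cidec. It was 1416 in Plin4, 1998 in Cav1 and 2068 in Cav2. The shares were not matched for length. In coding sequence, TTGCCAA occurred once each in Plin2, Plin4 and Bscl2, and TGCCAAA once in Plin4. A share over all genes was not computed for coding sequence, and 5′-UTRs were not searched. Such a match is a run of letters and was not tested as a binding site.

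Each library held 25869810 to 28796712 reads counted on genes, of which the members took 0.486% to 0.518%, or 129375 to 145017 reads. The mature miRNA is not captured by poly(A) libraries, so its overexpression could not be checked here. The labelled cell type was checked with 12 adipocyte markers, all of which were tested. With miR-182-5p, 10 were lower and 1 (Lep) was higher at an adjusted p under 0.05, against 23.5% and 23.2% of all genes tested. The summed level of the markers was 13400 to 14230 counts per 1000000 counted reads (CPM) in control and 9296 to 10480 with miR-182-5p. Adiponectin (Adipoq) changed by -0.46 ± 0.047 (log2 fold change ± SE, edgeR adjusted p = 2.39e-06), the fatty acid carrier Fabp4 by -0.68 ± 0.043 (adjusted p = 1.77e-08) and the adipogenic regulator Pparg by -0.31 ± 0.033 (adjusted p = 3.38e-06). In bulk RNA of this kind, fewer adipocytes and less RNA per adipocyte cannot be told apart, and the part of either in the results below was not tested.

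The droplet and caveola genes moved in both directions with miR-182-5p. Plin4, Plin5 and Cav2 rose, Plin2, Plin3, Cidec, Bscl2 and Cav1 fell, and Plin1 and Ptrf did not pass the test. By edgeR's quasi-likelihood test, 8 of 10 members had an adjusted p under 0.05, against 46.7% of all genes tested in either direction (3 higher against 23.2%, 5 lower against 23.5%). None reached the study's added cutoff of a 1.5-fold change, which 7.45% of all genes did together with the adjusted p (1.97% higher and 5.48% lower). The count was 0 also with DESeq2 and with limma-voom. An unadjusted edgeR p under 0.05 was found for 8 members and for 6963 of the 13117 genes tested. The size of the members' log2 fold changes, regardless of sign, had a median of 0.239, against 0.16 over all genes tested, and their signed median was -0.089 against -0.004. The CPM of the groups did not overlap for 9 of 10 members, a separation found for 54.8% of all genes tested. These shares over all genes were not matched for read counts. Each member had at least 341 reads in every sample, while the filter for testing used a minimum count of 10.

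**Figure D1:**
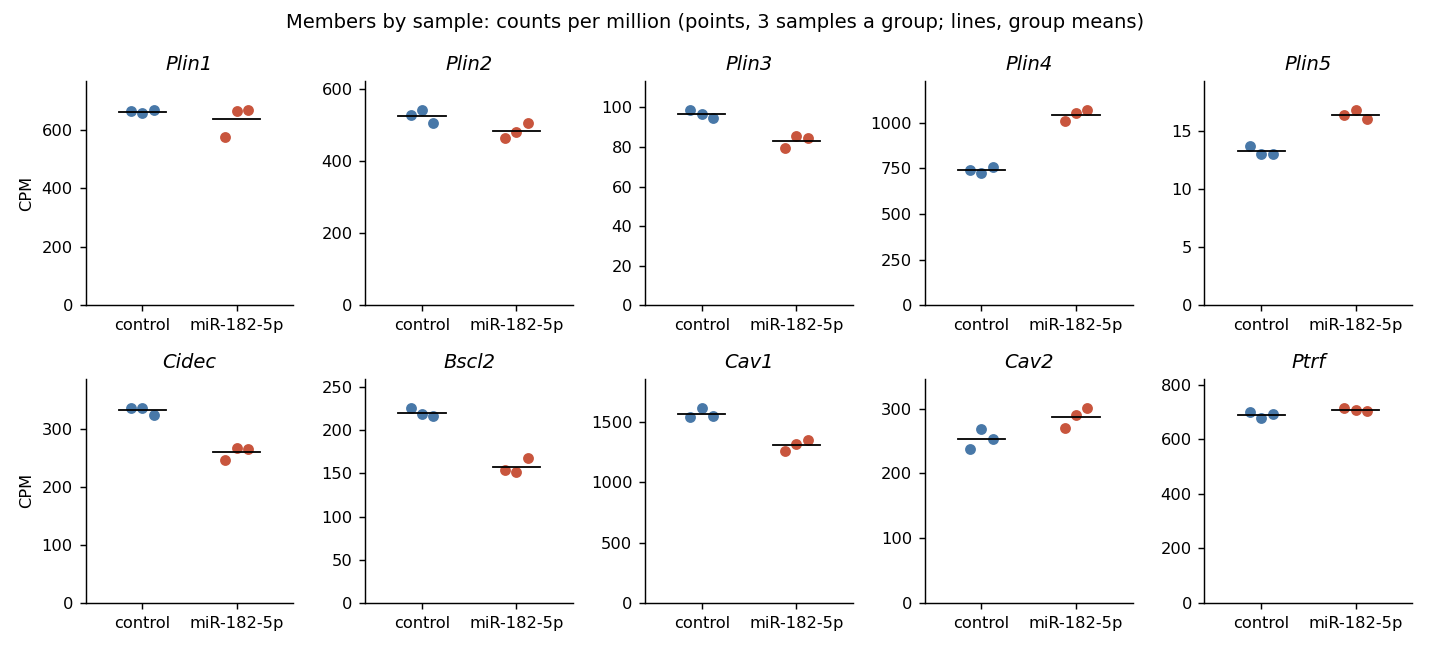
Level of each member in each sample, in CPM (vertical axes start at 0 and differ between panels); points are the 3 samples of a group and lines are group means. Plin4 and Plin5 are higher in all miR-182-5p samples, Cidec and Bscl2 are lower in all of them, and Plin1 overlaps between the groups.

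Among the perilipins, Plin4 showed the strongest increase. Plin4 coats small and newly forming droplets and is abundant in white fat. It was counted 18771, 18881 and 19712 times in control replicates 1 to 3 and 29481, 27722 and 30120 times with miR-182-5p. On the CPM scale the means were 738.5 ± 16.2 and 1043 ± 29.6 (SD, n = 3 each). Every miR-182-5p sample lay above every control sample, and the level rose by 41.2% (log2 fold change 0.50 ± 0.031 SE, edgeR adjusted p = 1.63e-08). The gene lies at chr17:56100591-56109803 (GRCm38, minus strand), and 17 of its 5777 exon bases are shared with Hdgfl2 on the opposite strand (Hdgfrp2 in the files), whose log2 fold change was 0.02 (adjusted p = 0.754).

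Plin5, which links droplets to mitochondria in oxidative tissues, was the least abundant member per kilobase of transcript. It was counted 350, 341 and 341 times in control and 478, 443 and 454 times with miR-182-5p. Its CPM averaged 13.3 ± 0.40 in control and 16.4 ± 0.37 with miR-182-5p, with no overlap, and the level rose by 23.6% (log2 fold change 0.31 ± 0.062 SE, edgeR adjusted p = 0.00102). It had the fewest reads and the widest 95% interval of the 10 members, 0.17 to 0.44 on the log2 scale.

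Plin2 and Plin3 moved the other way. Plin2 is the perilipin of most cell types and of droplets in immature adipocytes, and Plin3 is a soluble perilipin that joins nascent droplets. Plin2 was at 527.4, 541.8 and 507.7 CPM in control and at 464.5, 480.1 and 506.3 CPM with miR-182-5p. The groups were separated only by the gap between control replicate 3 and miR-182-5p replicate 3. The level fell by 7.99% (log2 fold change -0.12 ± 0.035 SE, edgeR adjusted p = 0.0126), a call that was lost without control replicate 2 (adjusted p = 0.0663) or without miR-182-5p replicate 2 (adjusted p = 0.0554). Plin3 was at 98.6, 96.9 and 94.6 CPM in control and at 79.6, 85.5 and 84.3 CPM with miR-182-5p. It was lower in all 3 miR-182-5p samples, and the level fell by 14.0% (log2 fold change -0.22 ± 0.036 SE, edgeR adjusted p = 0.000174). Plin3 is the member with the TGCCAAA match printed above.

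Plin1, the main perilipin of mature white adipocytes and the gatekeeper of hormone-stimulated lipolysis, was at 663.0, 657.5 and 667.1 CPM in control and at 577.0, 665.8 and 666.4 CPM with miR-182-5p. Replicates 2 and 3 of miR-182-5p lay within the control range, and replicate 1 lay below it. The log2 fold change was -0.06 ± 0.045 SE, with a 95% interval of -0.16 to 0.04 (edgeR adjusted p = 0.316). Without miR-182-5p replicate 1 it was 0.01 (adjusted p = 0.815), so the sign of this value rested on that sample. Plin1 carries the TTGCCAA match printed above.

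The genes for droplet enlargement and assembly were both lower. Cidec, which enriches at contact sites between droplets, was counted 8580, 8808 and 8496 times in control and 7209, 7059 and 7528 times with miR-182-5p. Its mean was 333.3 ± 6.73 CPM in control and 260.5 ± 11.8 CPM with miR-182-5p (SD, n = 3 each). All 3 miR-182-5p samples were lower, and the level fell by 21.8% (log2 fold change -0.36 ± 0.034 SE, edgeR adjusted p = 1.17e-06).

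Bscl2 showed the strongest decrease of the 10 members. It was counted 5745, 5726 and 5637 times in control and 4480, 3980 and 4731 times with miR-182-5p. The mean was 220.3 ± 4.95 CPM in control and 157.4 ± 8.92 CPM with miR-182-5p, with no overlap, and the level fell by 28.6% (log2 fold change -0.49 ± 0.037 SE, edgeR adjusted p = 1.47e-07). Of its 5897 exon bases (chr19:8837467-8848683, plus strand), 398 are shared with Gng3 on the opposite strand and 239 with AC129217.1 on the same strand. Reads there may be left uncounted or counted for either gene, and whether counting used the strand is not given in the sources used here. Gng3 was at 0.566 ± 0.014 CPM in control and 0.767 ± 0.10 CPM with miR-182-5p (edgeR adjusted p = 0.199).

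The caveola genes did not move together. Cav1, the caveolin that drives caveola formation in fat cells, was at 1543, 1617 and 1553 CPM in control and at 1261, 1321 and 1355 CPM with miR-182-5p. All 3 miR-182-5p samples were lower, and the level fell by 16.5% (log2 fold change -0.26 ± 0.034 SE, edgeR adjusted p = 2.55e-05). Cav2, which assembles with Cav1, was at 237.9, 269.2 and 252.6 CPM in control and at 269.9, 289.4 and 301.0 CPM with miR-182-5p. The highest control sample nearly met the lowest miR-182-5p sample, and the level rose by 13.2% (log2 fold change 0.18 ± 0.045 SE, edgeR adjusted p = 0.00477).

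Cav2 and Cav1 are neighbours on chromosome 6, both on the plus strand, 17219 bases apart with no protein-coding gene between them. Both overlap the span of the antisense gene Gm15581, which shares 0 exon bases with either. Ptrf, the cavin that stabilises the caveolar coat, was at 699.0, 677.1 and 693.4 CPM in control and at 715.5, 707.7 and 706.1 CPM with miR-182-5p. The groups did not overlap, but the log2 fold change was 0.04 ± 0.027 SE, with a 95% interval of -0.02 to 0.10, and did not pass the test (edgeR adjusted p = 0.240). The TTGCCAA match printed above lies in the Ptrf 3′-UTR, as in that of Plin1, which also missed the threshold. Plin3, with the TGCCAAA match, fell. A relation between matches and changes was not tested.

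**Figure D2:**
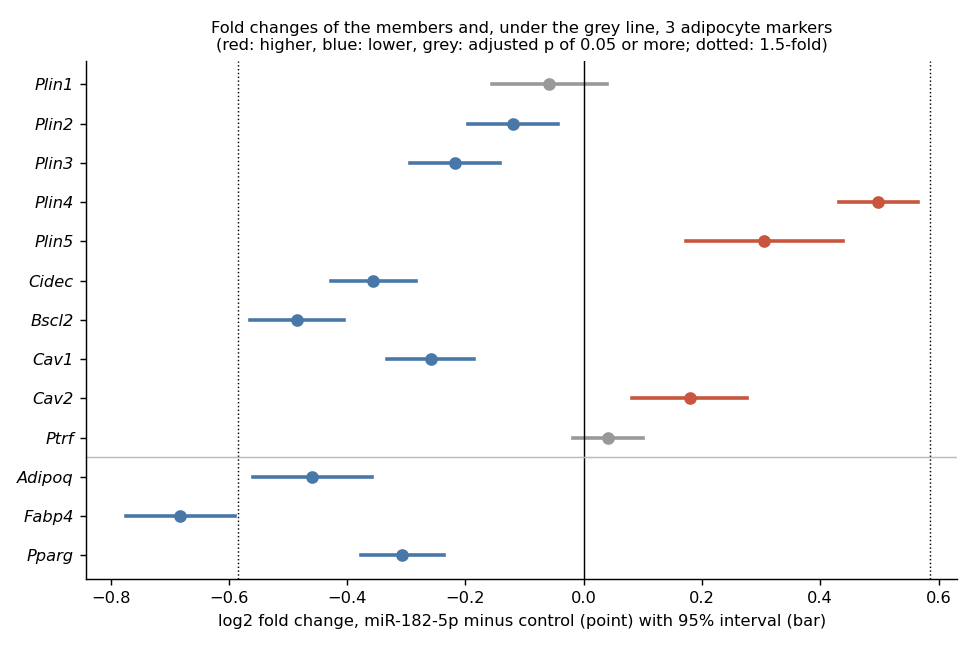
Log2 fold change of each member, miR-182-5p minus control (points), with 95% intervals (bars); Adipoq, Fabp4 and Pparg stand below the grey line, and dotted lines mark a 1.5-fold change. Plin4, Plin5 and Cav2 lie above 0, Plin2, Plin3, Cidec, Bscl2 and Cav1 below 0, the intervals of Plin1 and Ptrf include 0, and no member's point lies beyond the dotted lines.

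Levels of different genes were compared as CPM per kilobase of transcript. In control, Cav1 stood first at 622.8 ± 16.0 (SD, n = 3), followed by Plin2 at 278.4 ± 9.06, Plin1 at 235.2 ± 1.70, Ptrf at 197.6 ± 3.26 and Cidec at 193.8 ± 3.91. Plin4 at 128.3 ± 2.81, Bscl2 at 112.3 ± 2.52 and Cav2 at 92.7 ± 5.74 formed the middle of the order, and Plin3 at 26.5 ± 0.55 and Plin5 at 6.69 ± 0.20 closed it. Of these neighbours, only Ptrf and Cidec overlapped over their samples. With miR-182-5p the order changed at 2 places. Plin4, at 181.2 ± 5.14 CPM per kilobase, stood above Cidec at 151.5 ± 6.84, and Cav2 at 104.9 ± 5.76 stood above Bscl2 at 80.2 ± 4.55. Plin2 at 256.2 ± 11.2, Plin1 at 225.9 ± 18.3 and Ptrf at 203.3 ± 1.44 stood in the control order, and of these Plin1 and Ptrf overlapped over their samples.

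These shifts changed the makeup of the perilipin coat transcripts. Shares were taken of the summed reads per kilobase of the 5 perilipins within each sample, which does not depend on scaling between samples. Plin4 made up 18.93%, 18.49% and 19.60% of this sum in control and 26.73%, 25.92% and 25.70% with miR-182-5p, a difference of 7.11 percentage points. Plin2 went from 41.23% ± 1.04 to 36.91% ± 0.75 (SD, n = 3 each), Plin1 from 34.84% ± 0.51 to 32.50% ± 1.18 and Plin3 from 3.93% ± 0.061 to 3.29% ± 0.069. Plin5 went from 0.99% ± 0.028 to 1.19% ± 0.067. None of the 5 shares overlapped between the groups, and each gave p = 0.1 in an exact two-sided permutation test (0.1 after adjustment over the 5 shares), the smallest p that 3 against 3 samples allow. The shares of a sample add up to the whole, so a larger Plin4 share lowers the others. The 5 tests are therefore not separate results. The Plin1 share fell although its level did not pass the test (log2 fold change -0.06, edgeR adjusted p = 0.316). The summed CPM of the 5 perilipins was 2032 to 2040 in control and 2147 to 2340 with miR-182-5p. Per kilobase, however, the sums overlapped, with 676.8, 679.1 and 669.5 in control and 656.4, 705.4 and 721.3 with miR-182-5p. The Plin4 transcript, at 5756 bases, is the longest of the 5.

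**Figure D3:**
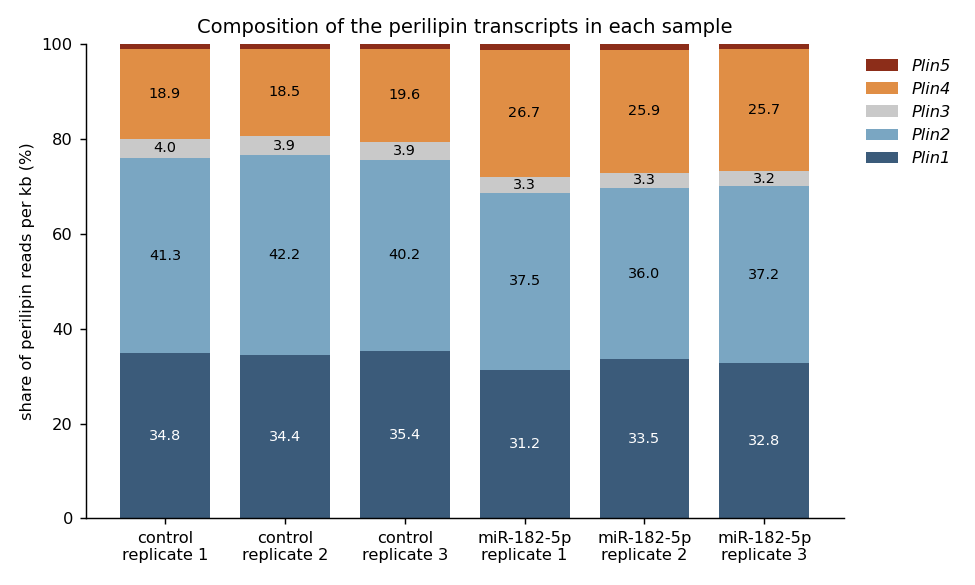
Share of each perilipin in the summed reads per kilobase of Plin1 to Plin5 (percent, stacked to 100) in each of the 6 samples. Plin4 takes 18.5% to 19.6% in control and 25.7% to 26.7% with miR-182-5p, while the Plin2 share is lower in every miR-182-5p sample.

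The Plin3, Plin4 and Plin5 genes lie close together on mouse chromosome 17. Plin4 and Plin5 are on the minus strand, 1797 bases apart with no protein-coding gene between them, and Plin3 lies 159879 bases beyond Plin5, with 7 protein-coding genes between. The neighbouring genes were looked at after the members' values were seen. Next to Plin5, Lrg1, a secreted glycoprotein, was counted 5748, 5526 and 5784 times in control and 8061, 7588 and 8130 times with miR-182-5p, and rose (log2 fold change 0.37 ± 0.032 SE, edgeR adjusted p = 3.98e-07). The semaphorin Sema6b beyond it also rose, from 139, 146 and 172 reads to 214, 212 and 234 reads (log2 fold change 0.42 ± 0.10 SE, edgeR adjusted p = 0.00313). Plin4, Plin5, Lrg1 and Sema6b were thus adjacent and all rose. In the stretch of 15 genes, 14 were tested, 5 rose and 3 fell, while 23.2% of all genes rose and 23.5% fell. The stretch was chosen around the members, and its counts include Plin4 and Plin5 among the rises and Plin3 among the falls. These counts are therefore not separate from the members' own results. Outside the members, Lrg1, Sema6b and Ticam1 rose, and Chaf1a and Ubxn6 fell. On the Plin4 side, Hdgfl2 did not pass the test, and Ubxn6 and Chaf1a fell, with log2 fold changes of -0.12 (edgeR adjusted p = 0.0449) and -0.45 (adjusted p = 3.83e-05). Between Sema6b and Plin3, Ticam1 rose (0.23 ± 0.049 SE, adjusted p = 0.00179), Mydgf, Dpp9 and Fem1a did not pass the test, and Tnfaip8l1 had too few reads to be tested. Whether the neighbours share a cause was not tested.

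**Figure D4:**
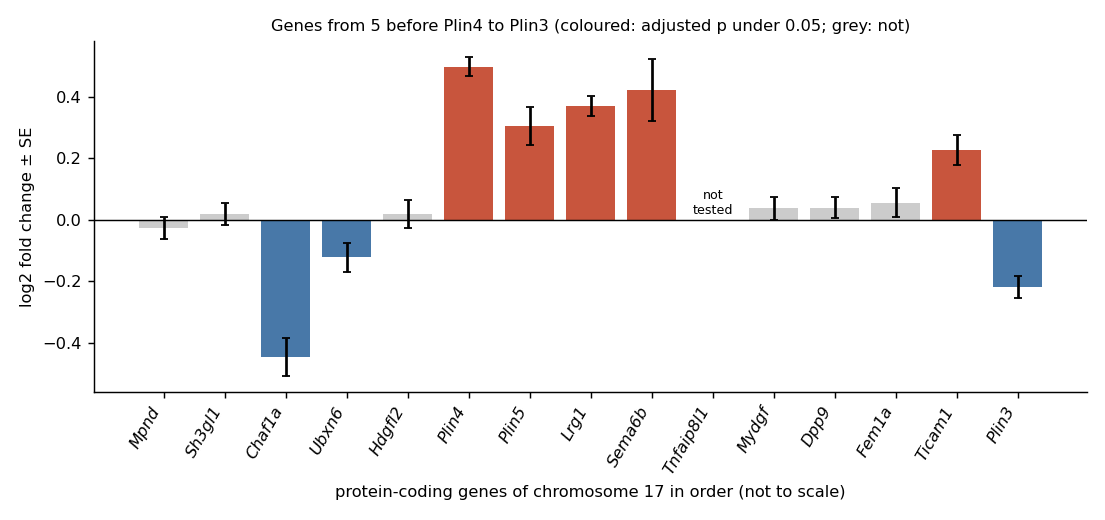
Log2 fold change (miR-182-5p minus control, bars; error bars, SE) of 15 consecutive protein-coding genes of chromosome 17, in order and not to scale; coloured bars passed an adjusted p of 0.05. Plin4, Plin5, Lrg1 and Sema6b stand side by side above 0, and Plin3 at the end lies below 0.

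Other genes of the same structures were then counted from the same fit. Of 9 further genes for droplet assembly, 7 were tested, 2 rose and 1 fell, a share near the 46.7% of all genes that passed, and their median log2 fold change was 0.083. Spg20 (spartin, which acts in droplet turnover) changed by 0.17 ± 0.037 SE (edgeR adjusted p = 0.00181), and Rab18, a small GTPase of the droplet surface, by 0.09 (adjusted p = 0.0266). Tmem159, the partner of seipin in assembly, moved the same way as Bscl2, at -0.28 ± 0.054 SE (adjusted p = 0.000737). Cidea, the relative of Cidec typical of brown fat, was barely detected, at 0.672 ± 0.30 CPM in control and 0.709 ± 0.25 CPM with miR-182-5p (adjusted p = 0.845), and the triglyceride-binding Fitm2 was at -0.04 (adjusted p = 0.526). Fitm1 and Cideb had too few reads to be tested. None passed both cutoffs by edgeR, DESeq2 or limma-voom. An unadjusted edgeR p under 0.05 was found for 4 of the 7, and for 6963 of all 13117 genes tested. Without control replicate 1, control replicate 3 or miR-182-5p replicate 2, 1 gene rose in place of 2.

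Of 16 droplet-associated enzymes and regulators, 15 were tested, 3 rose and 6 fell (46.7% of all genes passed), with a median of -0.053. Pnpla2, the adipose triglyceride lipase that Plin1 and Abhd5 control, fell past both cutoffs. It was counted 22798, 23224 and 22682 times in control and 15170, 14772 and 15999 times with miR-182-5p (log2 fold change -0.69 ± 0.034 SE, edgeR adjusted p = 1.71e-09). Mettl7a1 followed at -0.55 ± 0.066 (adjusted p = 1.16e-05). At the other end, the lipase inhibitor Hilpda rose by 0.37 ± 0.080 on the log2 scale (adjusted p = 0.00171), from 9.82 to 12.7 CPM. Mettl7b, at 1.67 and 2.24 CPM, had a log2 fold change of 0.42 ± 0.16 and an adjusted p of 0.0499, which stayed under 0.05 in 3 of 13 alternatives (range 0.0447 to 0.166). It was lost with DESeq2 (0.166) and limma-voom (0.0618), among others. Without miR-182-5p replicate 2, 2 genes of the list passed both cutoffs.

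Of 9 further caveola genes, 8 were tested, 4 rose and 0 fell at an adjusted p under 0.05 by edgeR, with a median of 0.054. Of all genes tested, 23.2% rose and 23.5% fell, or 46.7% in either direction. None passed both cutoffs by edgeR, DESeq2 or limma-voom. An unadjusted edgeR p under 0.05 was found for 4 of the 8, and for 6963 of all 13117 genes tested. Pacsin2, which bends the caveolar neck, changed by 0.34 ± 0.032 (adjusted p = 9.09e-07), and Murc, the muscle cavin (Cavin4), by 0.57 ± 0.14 (adjusted p = 0.00411) at 2.68 CPM in control. Pacsin3 at -0.15 (adjusted p = 0.0993) and the membrane ATPase Ehd1 at -0.06 (adjusted p = 0.130) had the lowest values of the list and did not pass. The muscle caveolin Cav3 had too few reads to be tested. Without control replicate 2, 2 of these genes rose and 1 fell, and without control replicate 3 or miR-182-5p replicate 2, 1 passed both cutoffs.

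Triglyceride synthesis, which supplies the droplet, was mostly lower. Of 11 genes, 10 were tested, 2 rose and 6 fell (46.7% of all genes passed), with a median of -0.415. The enzymes of the last step, Dgat1 (-0.66 ± 0.042, edgeR adjusted p = 1.65e-08) and Dgat2 (-0.61 ± 0.059, adjusted p = 1.45e-06), and the first-step acyltransferase Agpat9 (Gpat3, -0.62 ± 0.051, adjusted p = 3.02e-07) fell past both cutoffs. Dgat2 fell short of the 1.5-fold cutoff without control replicate 2 (-0.58) or miR-182-5p replicate 1 (-0.52), and Agpat9 without control replicate 2 (-0.56), with adjusted p under 0.05 throughout. Among the lipins, Lpin3 rose (0.49 ± 0.069, adjusted p = 4.7e-05), as did Lpin2 (0.17 ± 0.053, adjusted p = 0.0191). Without control replicate 1 or miR-182-5p replicate 2, 1 gene of the list rose. Plin2, Plin3, Cidec, Bscl2 and Cav1 thus moved in the direction of most of these genes and of most adipocyte markers. Plin4, Plin5 and Cav2 moved in the opposite direction. A test of that difference was not made.

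**Figure D5:**
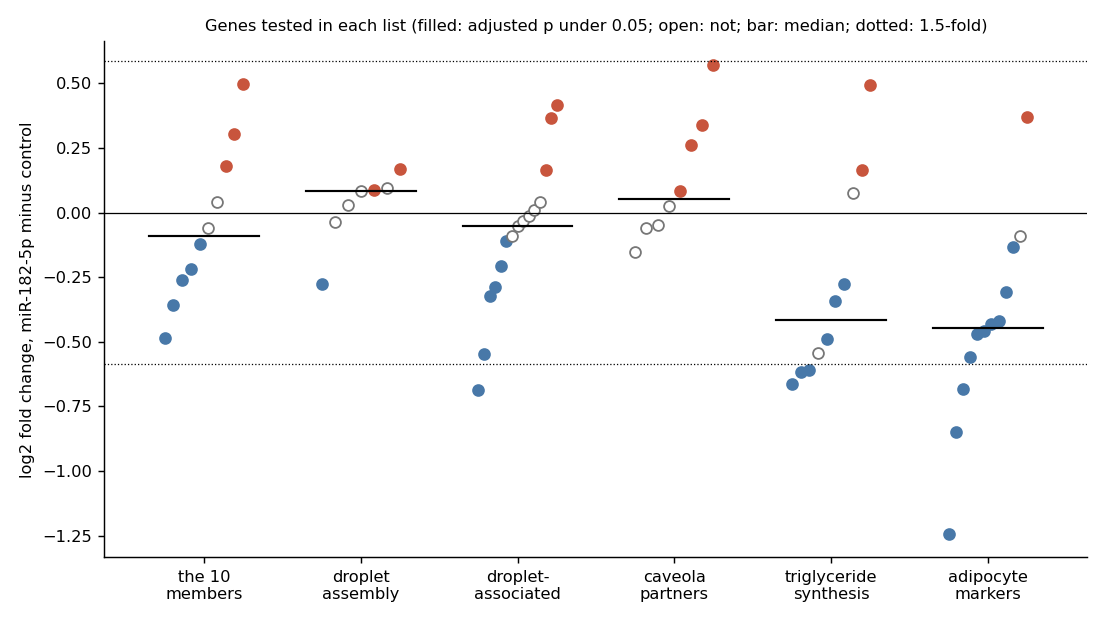
Log2 fold change (miR-182-5p minus control) of every tested gene in 6 lists; filled points had an adjusted p under 0.05, open points did not, bars are list medians and dotted lines mark a 1.5-fold change. The members lie on both sides of 0 with a median of -0.089, and the medians of triglyceride synthesis and of the adipocyte markers are -0.415 and -0.446.

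Markers of other cells also moved, while of all genes tested 23.2% rose and 23.5% fell. Of 4 smooth muscle markers, 3 rose. The 4 summed to 3446 to 3619 CPM in control and 4123 to 4490 CPM with miR-182-5p. Most of that sum was Acta2 (2364 CPM in control and 2891 CPM with miR-182-5p) and Tagln (1123 and 1277 CPM). Both rose, as did Cnn1. Myh11, at 18.09 CPM in control and 17.85 CPM with miR-182-5p, did not pass the test (edgeR adjusted p = 0.828). Of 10 progenitor and fibroblast markers, 9 were tested, 1 rose and 6 fell, and the sum was 41090 to 42910 CPM against 36150 to 37360 CPM. Most of that sum was Col1a1, which did not pass the test, and Col3a1, which fell (19250 and 19710 CPM in control). Of 8 macrophage markers, 4 were tested and 1 fell (14.5 to 15.6 CPM against 12.4 to 15.8 CPM). The macrophage gene that fell was Lyz2, from 1.24 to 0.795 CPM, counted only 18 to 34 times per sample. Cd68, Csf1r and Cd14 did not pass the test. Of 6 endothelial markers, 3 were tested and 1 fell (8.13 to 9.27 CPM against 5.09 to 5.92 CPM). The endothelial gene that fell was Tek, from 6.05 to 2.43 CPM. Kdr, at 1.59 CPM in control and 2.14 CPM with miR-182-5p, and Cdh5 did not pass the test. Of 6 skeletal muscle markers, 2 were tested and 1 rose, 25.4 to 27.0 CPM against 35.6 to 39.2 CPM, with Myod1 and Ckm at 0 reads in all samples. The gene that rose was Acta1, from 18.4 to 30.6 CPM, and Des did not pass the test. Of 4 erythroid markers, 1 was tested and did not pass (sum 0.651 to 0.746 CPM against 0.137 to 0.708 CPM), and Hbb-b1, Hbb-b2 and Hba-a1 were at 0 reads. The part of these cells in the members' changes was not tested.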

How the data were processed

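Poly(A)-selected, strand-marked RNA-seq libraries of 3 control and 3 miR-182-5p samples were analysed. Raw read counts for each gene symbol were deposited by the authors in 1 list per sample, and the submitters' processing notes name bcl2fastq, TopHat2, HTSeq and mm9. The strand setting of counting is not given in the sources used here. Of uniquely aligned reads, 12.7% to 13.0% lay outside genes and 0.652% to 0.667% were ambiguous. A further 19363264 to 21673840 alignments per sample were tallied as not unique. These tally lines were kept out of library sizes. Members and gene lists were chosen with earlier results of these data known. Fits of the 2 groups used edgeR 4.0.16 (R 4.3.3) with TMM, filterByExpr (minimum count 10), glmQLFit and glmQLFTest, two-sided, with Benjamini-Hochberg adjustment over 13117 genes; the fit was tested on simulated data. CPM used TMM-scaled library sizes. Lengths, positions and 3′-UTRs came from GENCODE M21 (GRCm38), since no mm9 annotation was used here. Lengths are of the longest principal transcript and 3′-UTRs of the transcript with the longest one, which can be another transcript of the gene, as for Plin4 and Cav1. DESeq2 1.42.0, limma-voom (limma 3.58.1), other scaling, filters and cutoffs, a replicate block and leaving out each sample were alternatives. Genes named were all members, genes past both cutoffs and the 2 largest and 2 smallest changes in each of the droplet, caveola and triglyceride lists, and of the marker lists Adipoq, Fabp4, Pparg and those at 0 reads, and genes overlapping a member. Genes named outside this rule were chosen after their values were seen. They were those beside Plin4 and Plin5, Rab18, Abhd5, G0s2, Lipe, Agpat2, Gpam and untested genes. From the marker lists they were Lep, Col1a1, Col3a1, Acta2, Tagln, Cnn1, Myh11, Lyz2, Cd68, Csf1r, Cd14, Tek, Kdr, Cdh5, Acta1 and Des.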

Additional observations from a re-analysis of the deposited data

How the results depend on the processing

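Of 540 alternative values, 511 kept their direction and their side of the threshold, or moved too little to count as changed. No normalization or other test changed a member's direction or call, and the number of members past both cutoffs was 0 under every alternative except without a fold cutoff, where it was 8. Plin1 reversed to 0.009 on the log2 scale without miR-182-5p replicate 1 (range when leaving out each sample, -0.089 to 0.009). The number of genes called in all was 977, and it was 6124 without a fold cutoff, 280 at 2-fold, 843 with DESeq2 and 902 to 1011 when leaving out each sample. Without a fold cutoff, the calls were 3 for droplet assembly, 9 for droplet-associated genes, 4 for caveola partners, 8 for triglyceride synthesis and 11 for adipocyte markers. At 2-fold they were 0 for droplet-associated genes, 0 for triglyceride synthesis and 1 for adipocyte markers. With upper-quartile factors, 1 droplet assembly gene rose in place of 2, and the cause was not tested. Leaving out each sample gave 1 to 2 rising droplet assembly genes, 1 to 2 called droplet-associated genes, 2 to 4 rising, 0 to 1 falling and 0 to 1 called caveola partners, and 1 to 3 rising and 2 to 3 called triglyceride synthesis genes. Droplet-associated genes that rose were 2 in place of 3 in 10 alternatives, a step too small to count as changed. Among these were DESeq2, limma-voom and the replicate block, which kept all samples and both cutoffs. Shares from counts not divided by length differed by -4.43 (Plin1), -1.07 (Plin3), 9.86 (Plin4) and 0.07 (Plin5) percentage points. Apart from the change with upper-quartile factors, the values counted as changed came with another cutoff, a sample left out or lengths left out. Their causes were not tested.

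In the fit with a block for replicate numbers, 925 genes passed both cutoffs and the members' 3 rises and 5 falls were counted again. Deviations of same-numbered samples correlated at -0.18 to -0.04 and those of other pairs at -0.05 to 0.12, so the numbers were not treated as pairs. Of the members, Plin5 had the fewest reads (341 to 478). The groups of 3 allow no exact permutation p under 0.1.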

Other observations

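Ratios of reads between members within a sample do not depend on the scaling between samples. The 6 ratios below were chosen after the members' values were seen, so their tests describe these samples only. Plin4 reads exceeded Plin1 reads 1.11, 1.10 and 1.13 times in control and 1.75, 1.58 and 1.6 times with miR-182-5p. Cav2 reads were 0.154, 0.166 and 0.163 of Cav1 reads in control and 0.214, 0.219 and 0.222 with miR-182-5p, a log2 difference of 0.44 between neighbouring genes whose products assemble together. The ratio of Ptrf to Cav1 was 0.439 ± 0.018 in control and 0.541 ± 0.024 with miR-182-5p (SD, n = 3 each), that of Cidec to Plin1 was 0.503 ± 0.013 and 0.410 ± 0.016, and that of Plin5 to Plin1 was 0.0201 and 0.0259. These 5 ratios did not overlap between the groups, each with p = 0.1 in an exact two-sided permutation test, the smallest that 3 against 3 samples allow (0.12 adjusted over 6 ratios). Plin2 to Plin1 overlapped, at 0.794 ± 0.032 and 0.762 ± 0.042 (exact permutation p = 0.4, adjusted p = 0.4).

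The lipase step of the droplet was described by its regulators as well. Abhd5, the coactivator of Pnpla2 that Plin1 holds in the resting cell, was at 202 ± 6.47 CPM in control and 166 ± 7.07 CPM with miR-182-5p (log2 fold change -0.29, edgeR adjusted p = 1.4e-05). The Pnpla2 inhibitor G0s2 was at 346 ± 5.97 and 299 ± 19.1 CPM (-0.21, adjusted p = 0.000594), and hormone-sensitive lipase (Lipe) was at 662 ± 10.8 and 622 ± 39.7 CPM and did not pass the test (-0.09, adjusted p = 0.0801). Further acyltransferases of triglyceride synthesis, Agpat2 (-0.49, adjusted p = 5.54e-06) and Gpam (-0.34, adjusted p = 5.02e-05), also fell. These 5 genes were chosen after their values were seen.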
